A study of Mus musculus with 17 samples.

Results

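Genes of cell cycle arrest and the p53 response were followed through livers, and through tumors, of mice with hepatocyte deletion of NgBR. The 10 members, found by their gene symbol, were Cdkn1a, Cdkn2a, Cdkn2b, Cdkn2c, Ccnd1, Ccng1, Mdm2, Gdf15, Btg2 and Gadd45b, out of 24352 genes listed under either diet. RNA-seq was run on 17 libraries. On the high-fat diet (HFD), given for 16 weeks, WT livers (n = 4) were set against livers of mice with liver-specific loss of NgBR (N-LKO, n = 4). On the Western diet (WD), which is high in fat and cholesterol and was also given for 16 weeks, there were WT livers (n = 3), N-LKO livers (n = 3) and N-LKO tumors (n = 3). NgBR, encoded by Nus1, is a subunit of cis-prenyltransferase, the enzyme that makes the dolichol on which N-glycans are assembled. By the study's methods all mice were C57BL6 males kept on chow before the diet, and N-LKO mice carry 2 loxP-flanked NgBR alleles and Cre driven by the albumin promoter. The study calls the deletion hepatocyte-specific, and whether every other cell type of the liver kept the gene was not tested here. The labels give no age, do not say whether the N-LKO livers held nodules, and do not tie a tumor to the mouse of a liver sample.

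The 10 genes sit on both sides of the decision to divide. Cyclin D1 (Ccnd1) binds CDK4 and CDK6 and starts the phosphorylation of the retinoblastoma protein that lets a cell leave G1. The INK4 proteins p16, p15 and p18 (Cdkn2a, Cdkn2b, Cdkn2c) block CDK4 and CDK6, and p21 (Cdkn1a) blocks cyclin-CDK complexes more widely. Cdkn1a, Ccng1 (cyclin G1), Mdm2, Gdf15 and Btg2 are known targets of the transcription factor p53. MDM2 is the ubiquitin ligase that marks p53 for breakdown, BTG2 is an antiproliferative protein that speeds mRNA deadenylation, GDF15 is a hormone of cell and nutrient stress, and GADD45B is a stress-induced regulator of MAP kinase signaling. In the quiescent liver hepatocytes rarely divide, and p21 and cyclin D1 are both induced when the organ is injured or regenerates.

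Promoter windows of 250 bases upstream of RefSeq starts (GRCm38.p6) are shown for 5 members, those whose window held a p53 half-site or a CRE, the element bound by the CREB and ATF families. The windows lie at chr17:29090729-29090978 on the plus strand for Cdkn1a, and on the minus strand at chr1:134079156-134079405 for Btg2, chr4:89311033-89311282 for Cdkn2b, chr11:40755287-40755536 for Ccng1 and chr10:117710759-117711008 for Mdm2. Capitals mark the matches, which are p53 half-sites in Cdkn1a (where the run spans 2 half-sites and their spacer), Ccng1 and Mdm2, the CRE letters TGACGTCA in Btg2 and Cdkn2b, and in Mdm2 also a match to the E2F-type motif TTTNNCGC on the other strand.
Cdkn1a: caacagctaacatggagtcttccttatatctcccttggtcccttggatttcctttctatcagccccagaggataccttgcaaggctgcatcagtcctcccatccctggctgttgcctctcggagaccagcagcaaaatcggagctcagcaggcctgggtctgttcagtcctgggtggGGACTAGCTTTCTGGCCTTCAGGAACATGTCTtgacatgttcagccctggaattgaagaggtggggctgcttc
Btg2: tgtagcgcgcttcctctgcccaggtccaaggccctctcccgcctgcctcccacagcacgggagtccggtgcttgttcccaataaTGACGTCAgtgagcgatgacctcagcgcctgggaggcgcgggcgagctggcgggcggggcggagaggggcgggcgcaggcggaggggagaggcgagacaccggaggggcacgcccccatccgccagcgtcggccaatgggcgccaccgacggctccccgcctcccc
Cdkn2b: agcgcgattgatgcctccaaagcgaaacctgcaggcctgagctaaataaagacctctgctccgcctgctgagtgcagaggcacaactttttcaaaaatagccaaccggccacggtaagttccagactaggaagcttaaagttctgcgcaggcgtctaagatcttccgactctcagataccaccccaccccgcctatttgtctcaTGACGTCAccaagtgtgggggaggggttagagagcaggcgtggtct
Ccng1: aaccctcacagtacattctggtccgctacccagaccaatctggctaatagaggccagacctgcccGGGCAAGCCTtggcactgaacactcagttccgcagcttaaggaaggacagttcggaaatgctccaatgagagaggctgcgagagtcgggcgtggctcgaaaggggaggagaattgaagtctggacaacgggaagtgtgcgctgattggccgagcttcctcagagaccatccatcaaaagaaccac
Mdm2: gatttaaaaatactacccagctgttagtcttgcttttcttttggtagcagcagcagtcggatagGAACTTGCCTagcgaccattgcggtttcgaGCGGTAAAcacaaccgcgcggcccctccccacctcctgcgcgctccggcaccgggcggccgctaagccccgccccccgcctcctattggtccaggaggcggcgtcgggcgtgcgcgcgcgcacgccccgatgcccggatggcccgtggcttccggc

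The motifs, 6 in all, were searched on both strands of every window: the p53 half-site, a p53 site of 2 half-sites up to 13 bases apart, TTTNNCGC, TGACGTCA, TGANTCA and CACGTG. Of 13 windows belonging to 9 members, the upstream one of the 2 Cdkn1a windows held the p53 site. The site begins 73 bases before the RefSeq start that this window adjoins, and the other Cdkn1a window held no match. Such a site was found in 0.0639% of 32851 windows genome-wide. A single p53 half-site was present in 7.13% of all windows, and was found once each in Ccng1 and Mdm2. TGACGTCA was present in 1.55% of windows and began 166 bases upstream in Btg2 and 46 in Cdkn2b. CACGTG, held by 6.02% of windows, was found in Gadd45b and in 1 of 2 Gdf15 windows, and TTTNNCGC, held by 4.28%, in both Cdkn2a windows and in Mdm2. TGANTCA was held by 6.75% of windows and by none of the 13. None of the 6 sets of letters was in either Cdkn2c window. A match describes the letters alone.

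The members lie on 7 chromosomes (GRCm38, GENCODE M21). On chromosome 4 are the neighbours Cdkn2a (89274471 to 89294653) and Cdkn2b (89306299 to 89311039), and Cdkn2c (109660876 to 109667189), all on the minus strand. Mdm2 (117688875 to 117710758, minus) and Gadd45b (80930073 to 80932204, plus) are on chromosome 10. Cdkn1a is on chromosome 17 (29090976 to 29100727, plus), Ccnd1 on chromosome 7 (144929931 to 144939925, minus), Btg2 on chromosome 1 (134075170 to 134079120, minus), Ccng1 on chromosome 11 (40748552 to 40755311, minus) and Gdf15 on chromosome 8 (70629393 to 70632456, minus). Cdkn1a and Ccnd1 each overlap a gene on the opposite strand. Part of the Ccnd1 reads was divided between features (fractional counts in 7 of 8 HFD and 9 of 9 WD libraries), as for Cdkn1a in 1 HFD and 8 WD libraries, and their values carry that uncertainty. The p16 and p19ARF transcripts of Cdkn2a share 1 gene value and cannot be told apart.

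Depth ran from 9096110 to 12215784 counts per HFD library and from 15494731 to 20200618 per WD library. Levels are CPM, the reads of a gene scaled to a common depth, on library sizes scaled by the trimmed mean of M-values, and a change passed where the adjusted p of the edgeR quasi-likelihood test, Benjamini-Hochberg over all genes tested, was under 0.05. Nus1, the deleted gene, ran from 82.5 to 96.2 CPM in WT livers, with 29.4 to 38.0 CPM in N-LKO livers on HFD, and on WD from 88.2 to 98.9 CPM in WT livers, 41.7 to 51.1 in N-LKO livers and 28.99 to 43.99 in tumors, as the labels imply. Of the WD livers, 1 stood apart from its group, and the tumors differed among themselves by more. Chi-square per degree of freedom, which grows as 2 libraries differ, was 65.2 to 103 between tumors. Between WT liver replicate 2 on WD and the other WT livers it was 53.3 and 55.1. WT liver replicate 2 on WD had the lowest scaling factor (0.806), and its summed level of 5 cholangiocyte markers was 17.2 CPM against 69.6 and 68.5 CPM in the other two WT livers. Its 20 proliferation genes summed to 37.9 CPM against 66.1 and 69.0 CPM. The WD results of Cdkn1a, Cdkn2c, Ccnd1 and Btg2 against WT liver, and that of Gdf15 in tumors, are therefore given with and without it. Hepatocyte markers summed to at least 30760 CPM in every library, and no marker of the 6 cell type lists was at 0 in all libraries of a group. Fewer cells of a type and less RNA per cell cannot be told apart in these bulk samples.

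Per kilobase of exon, the mean levels in WT liver on HFD were in the order Ccng1 (13.3 CPM per kilobase), Ccnd1 (7.21), Mdm2 (5.42), Btg2 (2.68), Cdkn1a (1.78), Gdf15 (1.55), Cdkn2c (0.960), Gadd45b (0.767) and Cdkn2b (0.160). The diets were quantified separately, so levels are not compared between them. In WT liver on WD the means of Ccng1, Ccnd1, Btg2 and Cdkn1a were 17.3, 11.7, 8.93 and 4.89 CPM per kilobase. In N-LKO liver on WD they were 20.6, 18.3, 13.3 and 11.9. In the tumors, also on WD, the order of the first 3 was Ccnd1 (28.2 CPM per kilobase), Cdkn1a (19.96) and Btg2 (19.9), followed closely by Ccng1 (19.5). The last 3 of these differed in mean by less than the SD of each over the tumors, and the SD of Ccnd1 was 47.5% of its mean. In WT liver on HFD the neighbours Cdkn1a and Gdf15 likewise lay within their spread.

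On HFD the question was how N-LKO liver differs from WT liver. Cdkn2c, Btg2 and Ccnd1 were higher in N-LKO liver, by 2.94-fold, 2.10-fold and 1.82-fold, and in each of them the lowest N-LKO liver lay above the highest WT liver. Of 8 members tested 3 rose and 0 fell, against a background of 4.84% of 13460 genes called in either direction, 2.56% called higher and 2.29% called lower. Those 3 also made up the members whose groups did not overlap, which held for 14.8% of all genes. Of the p53 targets among the members, Btg2 passed. The others did not, with log2 fold changes of 1.03 (Cdkn1a), 0.35 (Gdf15), 0.08 (Ccng1) and 0.01 (Mdm2). The median log2 fold change of the 8 tested members was 0.86, and that of all tested genes was -0.01. The members were chosen with earlier results of these data known, which limits this and the later comparisons of medians.

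Cdkn2c, the p18 inhibitor of CDK4 and CDK6, had the steadiest difference. Its level was 2.81, 2.58, 2.78 and 2.14 CPM in the WT livers and 9.11, 6.02, 7.94 and 7.36 CPM in the N-LKO livers on HFD. The groups were separated by a gap wider than the whole range of the WT livers. The log2 fold change was 1.56 (SE 0.19, edgeR adjusted p = 0.00537), and it passed without any 1 of the 8 libraries (1.46 to 1.66).

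Ccnd1, its opponent at the G1 restriction point, was at 25.5, 32.3, 32.2 and 45.8 CPM in WT livers and 50.1, 71.9, 64.1 and 60.9 CPM in N-LKO livers. The highest WT liver, replicate 4, came close to the lowest N-LKO liver. Its log2 fold change was 0.86 (SE 0.16, edgeR adjusted p = 0.0170), and without WT replicate 2 it was 0.84 with an adjusted p of 0.0549. Its partner kinase Cdk4 also rose, by 0.50 (SE 0.10, edgeR adjusted p = 0.0183), from a mean of 28.5 to 40.2 CPM, a call that stood in 5 of the 8 fits without 1 library.

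Btg2 was at 8.33, 7.74, 4.67 and 8.66 CPM in WT livers and at 12.8, 18.1, 13.6 and 17.4 CPM in N-LKO livers. No value of either group entered the range of the other. A log2 fold change of 1.07 (SE 0.19, edgeR adjusted p = 0.0139) was found, and passed without any 1 library (0.91 to 1.16).

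Cdkn1a, the p21 gene, was at 7.501, 8.13, 5.34 and 4.38 CPM in WT livers and at 10.4, 24.6, 6.09 and 10.3 CPM in N-LKO livers. The groups overlapped, and replicate 2, at 24.6 CPM, was far above every other N-LKO liver. The log2 fold change of 1.03 (SE 0.37) did not pass (edgeR adjusted p = 0.121), and without that library it was 0.51 (SE 0.24).

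Among the other members, Ccng1 ran from 41.7 to 53.8 CPM in WT livers, with 43.9 to 54.3 CPM in N-LKO livers, with a 95% interval of the log2 fold change from -0.12 to 0.27. Mdm2 ran from 26.0 to 31.1 CPM and from 21.9 to 32.4 CPM, with an interval from -0.23 to 0.24. For both genes the interval lies below a doubling and above a halving. Gdf15 was at 1.25, 6.98, 2.11 and 1.12 CPM in WT and 2.57, 4.12, 2.50 and 5.52 CPM in N-LKO livers, and Gadd45b ran from 0.611 to 2.10 CPM and from 0.746 to 4.04 CPM. Their log2 fold changes of 0.35 (SE 0.51) and 0.86 (SE 0.50) came with edgeR adjusted p values of 0.731 and 0.334. Single libraries moved both values: without WT replicate 2 they were 1.31 for Gdf15 and 1.27 for Gadd45b, without N-LKO replicate 2 Gadd45b was at 0.39, and without N-LKO replicate 4 Gdf15 was at 0.09, and none of these passed. Cdkn2b had 2, 5, 0 and 2 counts in WT and 1, 2, 0 and 0 counts in N-LKO livers, too few for the test. Without the filter on low counts its log2 fold change was -1.63 (SE 1.04, edgeR adjusted p = 0.436), and at this depth no difference was detectable.

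**Figure D1:**
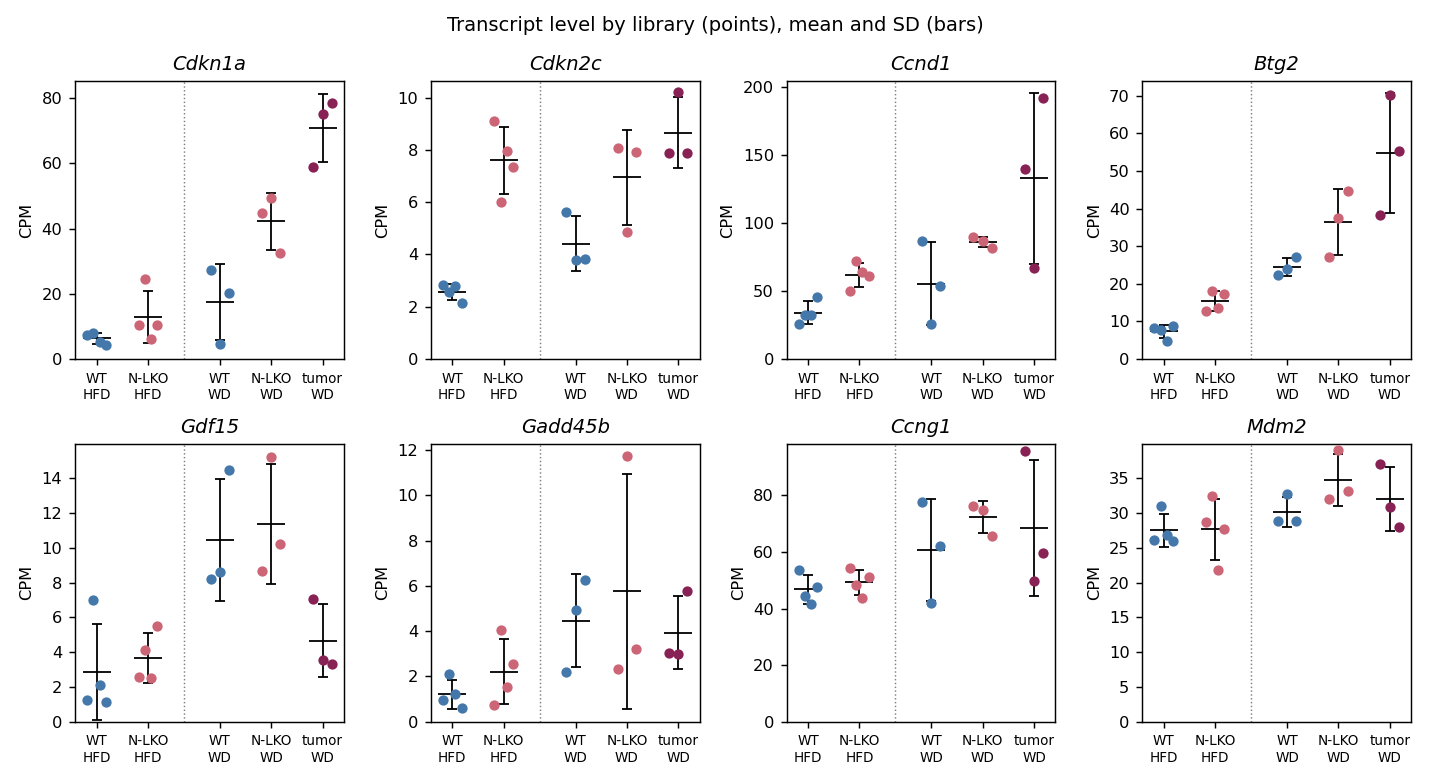
Level of the 8 tested members in CPM (vertical axis, from 0) in each library (points) of the 5 groups, with the mean and SD as bars; the dotted line separates the diets, which were quantified as separate tables. Cdkn2c on HFD runs from 2.14 to 2.81 CPM in WT livers, with 6.02 to 9.11 CPM in N-LKO livers, while the Mdm2 panel stays between 21.9 and 39.1 CPM in all 17 libraries.

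Among other genes of the same pathways on HFD, 23 of 28 other p53 targets were tested and 1 passed, a share near the background, the ribosomal protein gene Rps27l, with a log2 fold change of 0.32 (SE 0.08, edgeR adjusted p = 0.0494); it stood in 1 of the 8 fits that left out a library. Trp53 itself ran from 8.12 to 9.90 CPM in WT livers, with 8.16 to 9.72 CPM in N-LKO livers. In the list of 7 genes of p53 and its regulators, 1 passed: Mdm4, a p53 inhibitor related to MDM2, fell by 0.42 on the log2 scale (SE 0.08, edgeR adjusted p = 0.0176), from 38.6 to 28.9 CPM. With an offset for the GC content and length of transcripts that call was lost (-0.26, edgeR adjusted p = 0.0975), and it stood in 5 of the 8 fits without 1 library. None of 6 other CDK inhibitors and pocket proteins passed (Cdkn1c, the p57 gene, 0.69, SE 0.34). Nor did any of 6 other BTG/TOB and GADD45 genes or of 8 senescence-associated genes tested (Mmp12, a macrophage elastase gene, 0.94, SE 0.56). The medians of these lists were, in turn, 0.20, 0.04 and 0.02, with 4 of 6, 3 of 6 and 4 of 8 genes above 0. Cdkn1c and Mmp12, like Trib3 and Atf3 below, were named after their values were seen. Of 10 integrated stress response targets none passed either, with a median of 0.14 and 8 of 10 above 0. Their log2 fold changes included 0.21 (SE 0.14) for Atf4 and 0.62 (SE 0.29) for Trib3. Atf3, a stress-induced transcription factor gene, was at 1.20 (SE 0.44, unadjusted p = 0.0179, edgeR adjusted p = 0.126), a larger difference than those of Ccnd1 and Btg2. Cdk4 was 1 of 6 G1 cyclins and CDKs tested and the only one of them to pass.

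None of the 12 proliferation genes tested on HFD passed, with a median log2 fold change of 0.35, and their summed level ran from 33.4 to 50.7 CPM in WT livers, with 41.1 to 53.2 CPM in N-LKO livers. Markers of other cell types also differed between these groups. The 5 cholangiocyte markers summed to 20.5 to 38.4 CPM in WT and 54.5 to 99.6 CPM in N-LKO livers, and 1 of 2 tested was called higher (Spp1, which macrophages also express, 1.55, SE 0.27, edgeR adjusted p = 0.0139). The 7 Kupffer cell and macrophage markers summed to 84.2 to 109.5 CPM and 37.2 to 76.6 CPM, with 4 of 7 called lower. The 6 stellate cell and fibroblast markers, none of them called, had 5 values above 0 with a median log2 fold change of 0.87, and summed to 100.2 to 180.4 CPM in WT and 152.8 to 235.0 CPM in N-LKO livers. The 5 endothelial markers had a median of -0.44 with 1 called lower (Stab2, -0.61, SE 0.14, edgeR adjusted p = 0.0355), and summed to 91.9 to 111.3 CPM and 68.8 to 96.7 CPM. The part of these cells in the levels of Cdkn2c, Ccnd1 and Btg2 was not tested.

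On WD the same comparison of N-LKO with WT liver gave higher means for all 8 tested members, and 0 of 8 passed. No gene passed among all 17829 tested (a background of 0.0%) in edgeR, where 12.4% had an unadjusted p under 0.05. The deleted gene Nus1 did not pass either (-1.02, SE 0.16, edgeR adjusted p = 0.151), though its groups did not overlap. DESeq2 called 90 genes (0.505%) and none of the members. At the unadjusted level 3 of the 8 members were under 0.05, namely Cdkn1a, Cdkn2c and Btg2. Non-overlapping groups were found for 2 members, Cdkn1a and Btg2, and for 28.0% of all genes. The median log2 fold change of the members was 0.47 against 0.01 for all genes tested.

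Cdkn1a was at 27.3, 4.54 and 20.3 CPM in WT livers and at 44.7, 49.5 and 32.5 CPM in N-LKO livers on WD. Every N-LKO liver lay above every WT liver, of which replicate 2 was lowest by a wide margin. The log2 fold change was 1.28 (SE 0.47, unadjusted p = 0.0210, edgeR adjusted p = 0.367), and without WT replicate 2 it was 0.82 (SE 0.23, adjusted p = 0.888).

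Cdkn2c was at 5.63, 3.798 and 3.82 CPM in WT and at 8.08, 4.84 and 7.92 CPM in N-LKO livers. The lowest N-LKO liver fell inside the WT range. Its log2 fold change of 0.65 (SE 0.26, edgeR adjusted p = 0.379) was 0.56 without WT replicate 2. Btg2 was at 22.5, 23.9 and 27.1 CPM in WT livers and at 27.1, 37.5 and 44.6 CPM in N-LKO livers, where the groups touched without overlapping. Its log2 fold change was 0.57 (SE 0.24, edgeR adjusted p = 0.386), and 0.55 without WT replicate 2.

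Ccnd1 was at 86.6, 25.8 and 53.4 CPM in WT livers and at 89.5, 87.1 and 81.9 CPM in N-LKO livers. The N-LKO livers were close to one another and to WT replicate 1, and the difference of the means rested on the low WT replicate 2. Ccnd1 differed by 0.64 on the log2 scale (SE 0.43, edgeR adjusted p = 0.530), and by 0.30 (SE 0.38) without that library and 1.12 without WT replicate 1. Ccng1, Mdm2, Gdf15 and Gadd45b had log2 fold changes of 0.25, 0.21, 0.12 and 0.36, with edgeR adjusted p values from 0.546 to 0.898. Gadd45b was high in 1 N-LKO liver, at 11.7 CPM against 2.35 and 3.19 CPM in the other two, and without it its difference was -0.70.

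Cell type markers differed between the WD livers as well, though none was called. All 6 hepatocyte markers lay below 0 in N-LKO liver, with a median log2 fold change of -0.52, and their sum ran from 30760 to 38890 CPM against 42800 to 52240 CPM in WT livers, without overlap. All 5 cholangiocyte markers lay above 0 (median 0.96), with sums of 115 to 151 CPM against 17.2 to 69.6 CPM, and 5 of 6 stellate cell and fibroblast markers did (median 0.57), with sums of 502.9 to 611.1 CPM against 232.9 to 514.0 CPM. Their part in the higher means of the members was not tested.

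The genotype effect was also compared between the diets, over the 14 livers and the genes of both tables. None of the 8 members passed, against a background of 1.62% of 15850 genes. The nearest was Cdkn2c, whose effect was smaller on WD by 0.88 on the log2 scale (SE 0.31, unadjusted p = 0.0130, edgeR adjusted p = 0.136). For Cdkn1a the difference of effects was 0.26, with a 95% interval from -1.07 to 1.59, an interval that spans both signs. Outside the members, Mdm4 differed between diets by 0.73 (SE 0.15, edgeR adjusted p = 0.0293), since it was lower in N-LKO liver on HFD and measured 0.30 higher on WD (adjusted p = 0.426). With the GC and length offset the Mdm4 difference was 0.48 (adjusted p = 0.140), and it did not pass when any of 9 single libraries was left out (adjusted p of up to 0.0799).

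Tumors were compared with both WD liver groups, which share the tumor libraries, so that the comparisons are not independent of each other. Against N-LKO liver, 0 of 8 members passed and 0.499% of all genes did (0.437% higher and 0.0617% lower), and 2 members had an unadjusted p under 0.05, as did 18.3% of all genes. Cdkn1a was highest in the tumors, with 59.0, 75.3 and 78.5 CPM, all above the 3 N-LKO livers. Its log2 fold change was 0.75 (SE 0.46, edgeR adjusted p = 0.413). Cdkn2c, at 7.89, 10.2 and 7.87 CPM in tumors, differed from N-LKO liver by 0.32 (SE 0.25), a difference within the spread of the livers, and 0.11 without N-LKO liver replicate 2.

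Btg2 was at 38.4, 70.2 and 55.4 CPM in tumors, and the lowest tumor lay among the N-LKO livers. The log2 fold change against N-LKO liver was 0.59 (SE 0.23, unadjusted p = 0.0296, edgeR adjusted p = 0.221). Gdf15 went the other way, with 7.09, 3.56 and 3.34 CPM in tumors against 8.66, 15.2 and 10.2 CPM in N-LKO livers. No tumor reached the lowest N-LKO liver. Its log2 fold change was -1.29 (SE 0.35, unadjusted p = 0.00411, edgeR adjusted p = 0.109), and DESeq2 called it (-1.30, adjusted p = 0.0127) among 5.73% of all genes. Without tumor replicate 1 both passed in edgeR, Gdf15 at -1.72 (adjusted p = 0.0123) and Btg2 at 0.79 (adjusted p = 0.0379), in a fit that called 2193 of all genes against 89 with every library. Btg2 was at 0.36 (adjusted p = 0.527) without tumor replicate 2 and at 0.42 (adjusted p = 0.469) without N-LKO liver replicate 1, and Gdf15 ran no closer to 0 than -1.02 when any 1 library was left out. Among all genes 23.1% had groups that did not overlap, against 2 of the 8 members, Cdkn1a and Gdf15.

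Against WT liver on WD, tumors had more Cdkn1a, Cdkn2c and Btg2, by 4.07-fold, 1.97-fold and 2.23-fold. These 3 of 8 members passed and 0 fell, while 14.9% of all genes were called, 8.08% of the genes tested being higher and 6.8% lower in tumor. Non-overlapping groups were found for 4 members, the same 3 and Gdf15, and for 34.1% of all genes. The median log2 fold change of the members was 0.57 against 0.04 for all tested genes.

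Cdkn1a had a log2 fold change of 2.03 (SE 0.48, edgeR adjusted p = 0.0230). Its lowest tumor, at 59.0 CPM, was above the highest WT liver, at 27.3 CPM. Without WT replicate 2 the value was 1.57 (SE 0.23, adjusted p = 0.0257). Without WT replicate 3 or tumor replicate 2 the adjusted p was 0.0547 and 0.0506, and with tumors and WT livers fitted alone it was 0.0652. Btg2 rose by 1.16 (SE 0.24, edgeR adjusted p = 0.0159), with all tumors above the highest WT liver at 27.1 CPM. Its adjusted p was 0.0637 without WT replicate 2 (1.14) and 0.0527 without WT replicate 1.

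Cdkn2c rose by 0.97 (SE 0.25, edgeR adjusted p = 0.0324), from a mean of 4.42 to 8.67 CPM. This call was the least stable of the 3. It was lost without WT replicate 2 (0.88, adjusted p = 0.115), without WT replicate 3, tumor replicate 2 or N-LKO liver replicate 3 (adjusted p = 0.0919, 0.0956 and 0.0535), and in the fit of only these groups (adjusted p = 0.0644). Without WT replicate 2, 1 of the 8 members passed, Cdkn1a. That fit called 569 of all genes, against 2653 with every library.

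Ccnd1 was widely spread in the tumors, at 139, 66.6 and 192 CPM, and its middle value in WT livers was 53.4 CPM. Tumor replicate 2 lay within the WT range and the others above it. The log2 fold change of 1.26 (SE 0.43) had an edgeR adjusted p of 0.0736, which was 0.0404 without tumor replicate 2 and 0.0181 in DESeq2, and without WT replicate 2 the value was 0.92 (adjusted p = 0.192). Gdf15 was lower in each tumor than in each WT liver (8.24, 8.61 and 14.5 CPM), with a log2 fold change of -1.17 (SE 0.35, edgeR adjusted p = 0.0504). It passed in DESeq2 (adjusted p = 0.00942), which called 20.4% of all genes and 5 of the 8 members, and without tumor replicate 1 (-1.60, adjusted p = 0.0107), and without WT replicate 2 it was -1.29 (adjusted p = 0.0930).

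Of the p53 targets among the members, Cdkn1a and Btg2 were higher and passed, and Gdf15 was lower (edgeR adjusted p = 0.0504), as given above. The other p53 targets, Mdm2 and Ccng1, differed from WT liver by 0.09 (95% interval -0.19 to 0.37) and 0.17 (-0.35 to 0.69). Mdm2 was at 37.1, 30.9 and 28.1 CPM in tumors and 28.8, 32.7 and 28.9 CPM in WT livers. The ranges of the groups covered each other. Gadd45b was at 3.02, 2.98 and 5.79 CPM in tumors, with a log2 fold change against WT liver of -0.19 (SE 0.60).

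**Figure D2:**
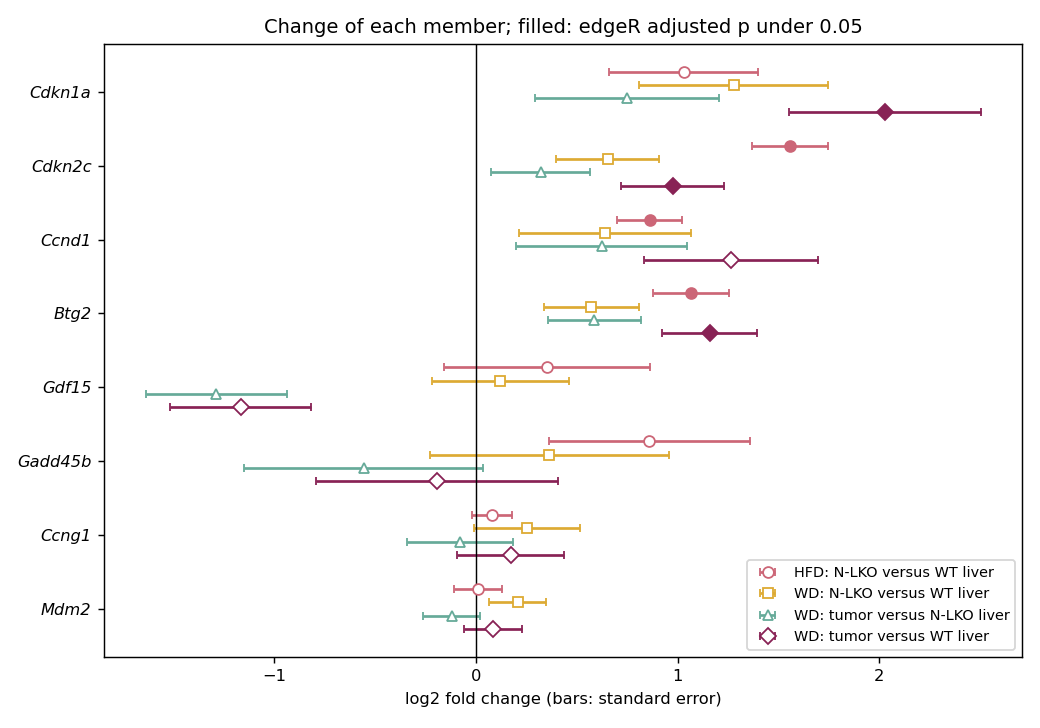
Log2 fold change (horizontal axis, bars are standard errors) of the 8 tested members in 4 comparisons, with filled symbols for an edgeR adjusted p under 0.05. Filled symbols are at Cdkn2c, Ccnd1 and Btg2 on HFD and at Cdkn1a, Cdkn2c and Btg2 for tumor versus WT liver, and Gdf15 lies at -1.29 and -1.17 in the 2 tumor comparisons.

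The INK4 genes Cdkn2b and Cdkn2a, which lie next to each other, were near the limit of detection. Cdkn2b, the p15 inhibitor, had 4, 1 and 2 counts in WT livers, 4, 6 and 9 counts in N-LKO livers and 25, 53 and 8 counts in tumors on WD. In 2 of 3 tumors it stood far above every liver, and the third was within the range of the N-LKO livers. Without the filter on low counts its log2 fold change was 3.05 against WT liver (SE 0.74, edgeR adjusted p = 0.0292) and 2.06 against N-LKO liver (SE 0.65, adjusted p = 0.167). The fit without the filter was not repeated without WT replicate 2. Cdkn2a had 4, 5 and 3 counts in WT livers, 0, 3 and 5 in N-LKO livers and 0, 5 and 4 in tumors. At this depth no difference of Cdkn2a was detectable, and counts this low limit only its level in whole tissue.

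**Figure D3:**
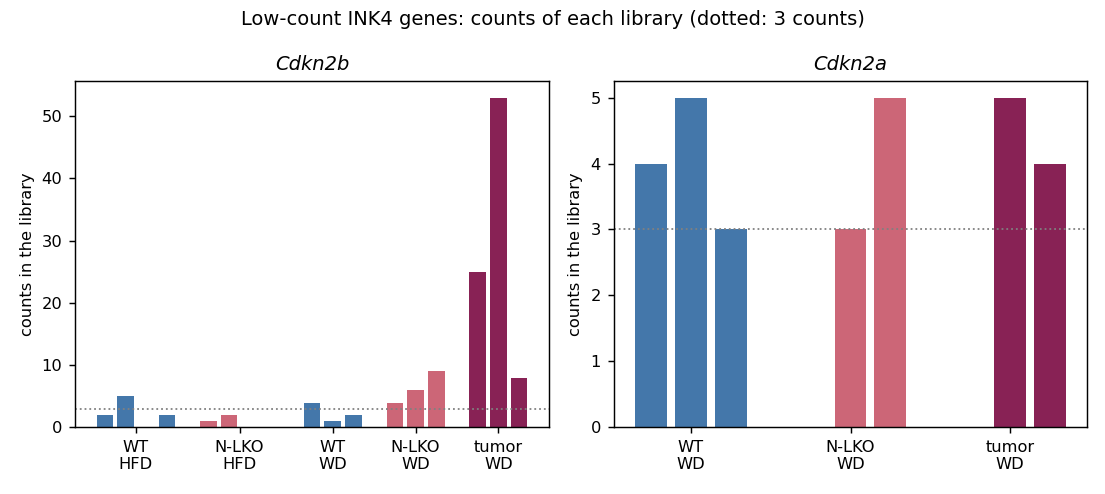
Counts of Cdkn2b and Cdkn2a (vertical axis, from 0) in each library, 1 bar per library in the order of the replicate numbers, with the dotted line at 3 counts. Cdkn2b reaches 25 and 53 counts in 2 tumors and at most 9 in any liver, and Cdkn2a is at 5 counts or fewer in every WD library.

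Around the members, proliferation genes were the list with most calls in tumors. Against WT liver 12 of 20 rose and 0 fell, with a median log2 fold change of 1.67. They included Top2a, which untangles replicating DNA (2.34, SE 0.40, edgeR adjusted p = 0.00969), Rrm2, a subunit of ribonucleotide reductase (2.30), the mitotic kinase gene Cdk1 (2.36) and Plk1, another mitotic kinase gene (2.82). Without WT replicate 2, in the fit that called 569 of all genes, 4 of 20 passed, with a median of 1.43. Their summed level was 37.9 to 69.0 CPM in WT livers, 73.5 to 93.9 CPM in N-LKO livers and 114.2 to 189 CPM in tumors, in the same order as the mean of Cdkn1a. Between N-LKO and WT liver on WD none of the 20 passed and all 20 lay above 0, with a median of 0.54, or 0.25 without WT replicate 2.

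Of 28 other p53 targets, 4 rose and 2 fell in tumors against WT liver, with a median of 0.42. Phlda3, an inhibitor of AKT, rose by 2.59 (SE 0.31, edgeR adjusted p = 0.00482), from a mean of 1.60 to 9.71 CPM. Psrc1, a microtubule-associated gene, rose by 3.396 and Tnfrsf10b, a TRAIL death receptor, by 2.00, while Perp, an epithelial adhesion gene, fell by 0.97. Without WT replicate 2, 2 of the 28 rose and 0 fell. Trp53 was at 14.6, 20.02 and 18.1 CPM in tumors and ran from 12.8 to 15.1 CPM in WT livers, a log2 difference of 0.36 (SE 0.15, edgeR adjusted p = 0.134). Mdm4 rose by 0.61 (SE 0.14, edgeR adjusted p = 0.0237), from a mean of 60.8 to 92.5 CPM, and was 1 of 7 genes of its list to pass (0 of 7 without WT replicate 2).

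The pocket protein genes Rbl1 (p107) and Rb1 rose in tumors by 1.39 and 0.44, and Rbl2 (p130), the pocket protein of resting cells, fell by 0.82, which made 3 of 6 in their list. The Rb1 call was lost in 12 of the 15 alternative fits and that of Rbl2 in 2, while that of Rbl1 held in all 15. Of 7 G1 cyclins and CDKs, cyclin E1 (Ccne1, 2.35) and cyclin D2 (Ccnd2, 0.68) rose. Btg3 (1.495) and Btg1 (0.59), relatives of Btg2, rose among 6 genes of that list. Without WT replicate 2 the calls in these 3 lists came down to 1, 0 and 0. Integrated stress response targets had 0 of 10 called (1 lower without WT replicate 2), with Atf4 at -0.13 and Trib3 at 0.77. Of 13 senescence-associated genes tested, the collagenase gene Mmp13 rose by 3.09 and Igfbp3 fell by 0.72. Without WT replicate 2 Mmp13 still passed (2.60, edgeR adjusted p = 0.0350) and Igfbp3 did not (-0.87, adjusted p = 0.0512), and the Igfbp3 call was lost in 8 of the 15 alternative fits where that of Mmp13 held in all 15. In tumor versus N-LKO liver none of these lists had a call.

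**Figure D4:**
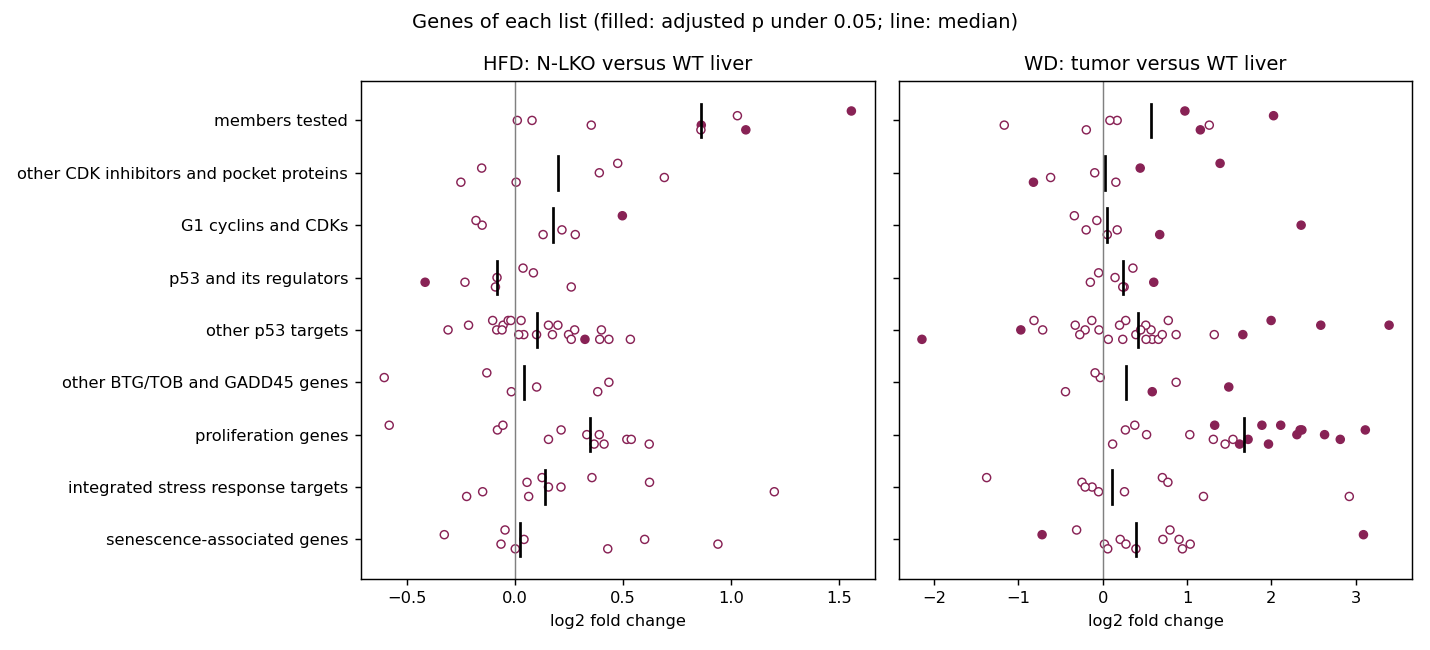
Log2 fold change (horizontal axis) of each tested gene in the members and in 8 lists of related genes, for N-LKO versus WT liver on HFD (left) and tumor versus WT liver on WD (right); filled points have an edgeR adjusted p under 0.05 and vertical lines are medians. Among the lists drawn, the members have the highest median on HFD (0.86), and in tumors the proliferation genes do (1.67). Members and lists were chosen with earlier results of these data known, so this order describes the choice as well as the data. Of the cell type markers, which are not drawn, 6 stellate cell and fibroblast genes (0.87) and 2 cholangiocyte genes (0.96) had higher medians on HFD.

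Markers of other cells moved with the tumor comparison too. The 5 cholangiocyte markers summed to 17.2 to 69.6 CPM in WT livers, 115 to 151 CPM in N-LKO livers and 195 to 524 CPM in tumors, with 2 of 5 called higher against WT liver, Sox9 (2.67) and Spp1 (2.88). These 2 genes made up most of the sum, and the other markers had values of 0.60 (Epcam), -0.06 (Krt19) and -0.10 (Krt7). Against N-LKO liver 2 of the 5, Sox9 and Spp1, lay above 0, and 1 of the 5 was called higher. Epcam, Krt19 and Krt7 lay below 0, and the median of the 5 was -0.65. Endothelial markers summed to 239.1 to 243.5 CPM in tumors and 239.0 to 260.4 CPM in WT livers, with Pecam1 called higher (1.08) and Clec4g lower (-1.39). The 7 Kupffer cell and macrophage markers summed to 283 to 361, 231 to 287 and 94.9 to 249 CPM, with 2 of 7 called lower. The 7 lymphocyte markers summed to 3.26 to 4.71 CPM in WT livers and 7.94 to 12.9 CPM in tumors. All 6 hepatocyte markers lay below 0 against WT liver, with a median of -0.65, and 2 of 6 were called lower. They summed to 37140, 33400 and 58580 CPM in tumors, so that replicates 1 and 2 lay below every WT liver and replicate 3 above. Of 6 stellate cell and fibroblast markers, none called, 4 lay above 0 against WT liver (median 0.37) and 1 against N-LKO liver (median -0.22). The part of these cells in the levels of Cdkn1a, Cdkn2c, Btg2 and Gdf15 was not tested.

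Over the 8 HFD livers and the 9 WD libraries, the genes whose level varied most like that of Cdkn1a were Map4k4, Pde4a, Bcdin3d, Ddx39b and Tagap, with means of the 2 Pearson correlations of log2 CPM from 0.843 to 0.892 among 13416 genes. Of the members, Btg2 (0.689), Ccnd1 (0.674) and Cdkn2c (0.644) were nearest, at ranks 191, 225 and 316. Gdf15 was at 0.05, with 0.55 over the HFD livers and -0.44 over the WD libraries. These correlations describe libraries that share group, depth and cell makeup, and carry no test.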

How the data were processed

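RNA-seq libraries from mouse liver and tumor were made by the authors after ribosomal RNA removal and sequenced single-end. Deposited were estimated counts of genes from the authors' Partek expectation-maximization step, 1 column per library, neither scaled nor pooled. Of the values, 69.3% (HFD) and 66.2% (WD) were whole numbers. The study's methods name TopHat2, whereas the submitters' processing notes name STAR and mm9, yet the gene positions in the files matched GRCm38 (GENCODE M21). Whether counting used strand is not given in the sources used here.

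After rounding, edgeR 4.0.16 (R 4.3.3) was run with TMM scaling and filterByExpr, and its quasi-likelihood F test adjusted by Benjamini-Hochberg. The 8 HFD livers were fitted alone, the 9 WD libraries together, and the difference of genotype effects over 14 livers. Standard errors, the log2 fold change over the root of F, are approximate. The filter removed Cdkn2b on both diets and Cdkn2a on WD; Cdkn2a was analysed on WD only. Scripts were tested on simulated data. No library repeated another (chi-square per degree of freedom from 7.99 to 103 over 21 pairs). Alternatives were DESeq2 1.42.0 (its size factors, and its Wald test), no filter, a replicate block, a length and GC offset, fits of 2 groups and each library left out. All members are described. From the other lists, at most 4 genes past the threshold are named in order of adjusted p, or the 2 of highest mean CPM where none passed; Rps27l and the marker genes were named because a count or level turned on them, and Atf3, Cdkn1c, Trib3 and Mmp12 on HFD were named after their values were seen. The members and lists were chosen with earlier results of these data known. Tables of the 2 diets were quantified separately, so diet and table cannot be told apart.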

Additional observations from a re-analysis of the deposited data

Results flagged for a closer look

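Gdf15 in WT liver on HFD was flagged because 1 library lay far from the rest: replicate 2 was at 6.98 CPM, and the other 3 livers were between 1.12 and 2.11 CPM. Its gap to the nearest value, divided by the range of the group, was 0.831, just past Dixon's limit for 4 values. Among 17 sets of 4 values examined this was the 1 past the limit, and chance flags about 1 in 20. Without this library the log2 fold change of Gdf15 on HFD was 1.31 (SE 0.37, edgeR adjusted p = 0.107) in place of 0.35.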

How the results depend on the processing

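Dropping 1 library at a time, the count of members called ranged from 2 to 3 on HFD, 0 to 0 for N-LKO versus WT liver on WD, 0 to 2 in tumor against N-LKO liver, 1 to 4 in tumor against WT liver and 0 to 0 for the difference of genotype effects, and the count of all genes called from 179 to 597, 0 to 1, 3 to 2193, 569 to 3819 and 22 to 330. In the DESeq2 Wald test the genes called were 1000 on HFD, 90, 1021 and 3646 in the 3 WD comparisons and 874 for the difference of effects, with 1 member called in tumor against N-LKO liver and 5 of 8 against WT liver. Without the filter 5 members were called for tumor versus WT liver, Cdkn2b among them. With only 2 groups in the fit the genes called were 6, 29 and 705 in these 3 WD comparisons, and 1 member, Btg2, for tumor versus WT liver. With the length and GC offset 257 genes were called on HFD and 1 for the difference of effects, where Ccng1 was -0.0527, Gdf15 0.0438 and Trp53 0.0850. Trp53 was -0.0338 on HFD and 0.0246 between WD livers. Deviations from the group means were weakly correlated between libraries of the same replicate number. The correlations ran from -0.0759 to 0.107 over 4 pairs on HFD and from -0.124 to 0.101 over 9 on WD. With so few libraries per group they cannot settle whether libraries are paired. A replicate block gave 36 genes in tumor against N-LKO liver and 0 for the difference of effects. With it Cdkn2c in tumor versus WT liver was at 1.00 (edgeR adjusted p = 0.0512). The 3 HFD calls of members held under every setting other than Ccnd1 without WT replicate 2. Some values near 0, none of which had passed, changed sign when 1 library was left out, with these log2 ranges: in N-LKO versus WT liver on HFD Mdm2 -0.0751 to 0.11, Trp53 -0.00584 to 0.0933, and in N-LKO versus WT liver on WD Gdf15 -0.15 to 0.43, Gadd45b -0.70 to 0.74, Trp53 -0.12 to 0.00651, and in tumor versus N-LKO liver Gadd45b -0.94 to 0.50, Ccng1 -0.40 to 0.0921, and in tumor versus WT liver Ccng1 -0.15 to 0.38, Mdm2 -0.0356 to 0.17, Gadd45b -0.58 to 0.13, and in the difference of effects Gdf15 -1.18 to 0.11, Ccnd1 -0.56 to 0.27, Cdkn1a -0.21 to 0.78, Ccng1 -0.0316 to 0.41. The causes were not tested.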
